A study of Mus musculus with 12 samples.

Results

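The genes described here encode the subunits of the receptors for interleukin-4 and interleukin-13 and the kinases and transcription factors that act behind them: Il4ra, Il13ra1, Il2rg, Jak1, Jak2, Jak3, Stat3, Stat5a, Stat5b and Stat6. They were chosen by name, as the rows of the deposited count table whose gene symbol equals one of these 10 symbols, and make up 10 of its 54532 genes. All 10 were found and all 10 passed the filter on low counts. RNA was sequenced from primary mouse eosinophils that had been sorted from spleen by high side scatter and the 4get reporter, a green fluorescent protein that marks cells with an active Il4 gene. The mice were IL-5tg_4get/C57BL/6, so every group carried both the transgene for interleukin-5, which drives eosinophilia, and the reporter. Every culture lasted 4 h. One group received 5 µg/mL of a rat antibody against Siglec-F, a sialic acid-binding receptor of eosinophils, together with 10 ng/mL of interleukin-33 (IL-33). The others received IL-33 alone, anti-Siglec-F alone, or a rat IgG2a isotype control antibody. Each of the 4 groups had 3 libraries. The labels do not say whether cells given IL-33 alone also received the isotype antibody. The labels give neither the age of the mice nor the promoter of the transgene. Nor do they state that the 3 libraries of a group were made from different mice or separate cultures, and the p-values below therefore reflect library-to-library spread alone, part or all of which may be technical.

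Interleukin-4 binds a receptor made of IL-4Rα, the product of Il4ra, paired either with the common gamma chain (Il2rg) or with IL-13Rα1 (Il13ra1), and interleukin-13 uses the pairing with IL-13Rα1. The receptor tails carry the Janus kinases: JAK1 sits on IL-4Rα, JAK3 on the common gamma chain, and JAK2 or TYK2 on IL-13Rα1. The activated kinases phosphorylate the receptor and then STAT6, which enters the nucleus as a dimer, while STAT5A, STAT5B and STAT3 serve other cytokine receptors. In eosinophils JAK2 and STAT5 carry the survival signal of interleukin-5, whose receptor uses the common beta chain. Interleukin-33 signals through ST2 and MyD88.

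The promoters of Il2rg, the only member called in edgeR's fit of all 12 libraries, and of Il4ra, which names the receptor, are shown because both genes serve the same receptor and that fit called only the first. They are taken from RefSeq on GRCm38.p6 and run from 250 bases before to 50 bases after the gene's start, 5′ to 3′ on the gene's own strand. Capitals in the Il2rg window, chrX:101268206-101268505 on the minus strand, mark an ETS core, CCGGAAG, whose first base lies at -17 from the start. Capitals in the Il4ra window, chr7:125552021-125552320 on the plus strand, mark a match to the kappaB consensus at 21.
Il2rg: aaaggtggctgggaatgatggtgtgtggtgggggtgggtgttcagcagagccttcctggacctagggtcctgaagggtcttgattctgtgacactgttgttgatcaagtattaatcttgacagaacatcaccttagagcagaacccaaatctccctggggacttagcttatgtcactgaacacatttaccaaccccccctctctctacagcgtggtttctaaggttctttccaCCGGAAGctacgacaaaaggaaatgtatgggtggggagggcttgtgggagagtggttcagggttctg
Il4ra: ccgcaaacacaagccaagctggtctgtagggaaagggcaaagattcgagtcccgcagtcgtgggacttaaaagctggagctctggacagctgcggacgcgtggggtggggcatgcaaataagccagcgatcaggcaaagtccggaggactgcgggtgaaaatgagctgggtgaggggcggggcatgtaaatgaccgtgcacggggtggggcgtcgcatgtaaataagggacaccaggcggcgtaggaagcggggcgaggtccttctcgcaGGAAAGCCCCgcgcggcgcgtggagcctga
Of 32851 mouse promoter windows of this length, 8.86% held the ETS core and 8.46% the kappaB consensus, counted on both strands. The STAT6-type motif TTCNNNNGAA was present in 6.95% of these windows and the STAT-type motif TTCNNNGAA in 8.3%. Neither motif was found in any window of the 10 genes. The matches are a description of these letters and were not tested as binding sites.

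Total counts per library ran from 12663407 to 17137988 with both stimuli, from 12140747 to 15686225 with IL-33, from 11686603 to 15058611 with anti-Siglec-F and from 12046727 to 14636985 with isotype. Levels are given as CPM, the counts of a gene scaled to a common sequencing depth and corrected for library composition. Siglecf, the gene of the antibody's target, averaged 617 CPM with both stimuli, 698 CPM with IL-33, 908 CPM with anti-Siglec-F and 878 CPM with isotype, and no difference was called. The summed level of the 12 eosinophil markers in the table, of 13 listed, lay between 5291 and 14906 CPM over all libraries. Genes of other cell types were present at lower sums. The libraries with both stimuli differed most from each other, with a median within-group SD of log2 CPM of 0.44, against 0.28 with IL-33, 0.25 with anti-Siglec-F and 0.22 with isotype. Library 2 of that group had 15555 genes with a count and library 3 had 29990, against 19138 to 24485 in all the others. In a sorted bulk sample, fewer cells of a type and less RNA per cell cannot be told apart.

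**Figure D1:**
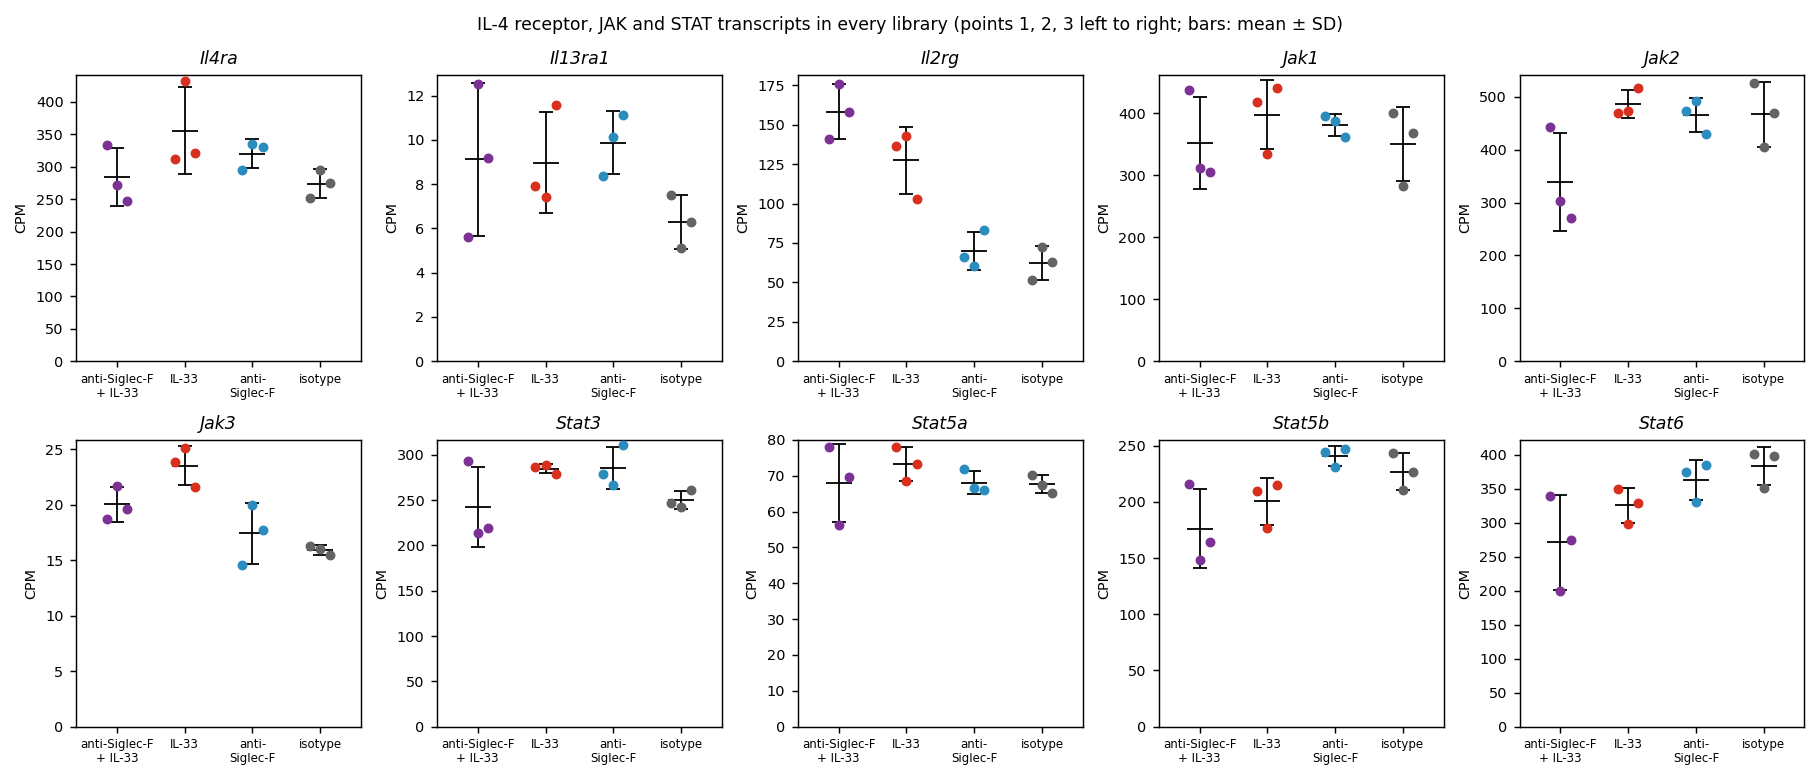
Level of each of the 10 genes in every library, in CPM on a linear axis from 0; points are libraries 1, 2 and 3 from left to right in each group, and bars are the mean ± SD (n = 3). Il2rg is above isotype in every library that received IL-33, while the points of most other genes overlap between groups.

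Per kilobase of gene length, the scale on which genes can be compared, the order of levels in the isotype group ran from Jak2 to Il13ra1. Jak2 averaged 92.8 ± 12.2 and Stat6 87.1 ± 6.30 CPM per kilobase (SD, n = 3), and their libraries overlapped. Jak1 followed at 48.5 ± 8.35, Il4ra at 45.6 ± 3.71 and Stat5b at 41.0 ± 2.97 CPM per kilobase, again with overlapping libraries. Stat3 at 26.3 ± 1.03 and Il2rg at 26.1 ± 4.48 CPM per kilobase could not be ordered either. Stat5a at 9.48 ± 0.36, Jak3 at 2.97 ± 0.08 and Il13ra1 at 1.69 ± 0.32 CPM per kilobase each lay apart from the gene above them. The receptor chain and the kinase that define the IL-13-binding pairing and the gamma-chain pairing, Il13ra1 and Jak3, were thus the 2 lowest of the 10. With both stimuli Il2rg stood at 66.3 ± 7.24 CPM per kilobase, within the range of Jak2 at 67.4 ± 18.3 and Stat6 at 61.6 ± 15.9 CPM per kilobase. In the annotation Gm20489 overlaps Il2rg by 3878 bases and Insl3 overlaps Jak3 by 1362 bases, both on the same strand. Gm20489 had 0 to 3 counts per library and Insl3 0 to 18. How reads shared by overlapping genes were counted is not known here. The levels of Il2rg and Jak3 beside other genes are therefore uncertain.

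Il2rg (ENSMUSG00000031304, chrX:101264378-101268255 in mm10, minus strand) encodes the common gamma chain, shared by a family of receptors for interleukins that includes interleukin-4 and interleukin-2. It had 141, 176 and 158 CPM with both stimuli, 136, 143 and 103 CPM with IL-33, 65.9, 60.6 and 83.1 CPM with anti-Siglec-F, and 51.2, 72.6 and 62.9 CPM with isotype. Every library that received IL-33 lay above every library that did not. Libraries with IL-33, with or without the antibody, overlapped each other, and so did those without it. Il2rg rose with both stimuli against isotype by a log2 fold change of 1.35 (SE 0.18, adjusted p = 0.00074 in edgeR), a 2.54-fold difference. IL-33 alone raised it against isotype by 1.03 (SE 0.18, adjusted p = 0.00859), and both stimuli raised it against anti-Siglec-F by 1.18 (SE 0.18, adjusted p = 0.00376). Anti-Siglec-F against isotype gave a log2 fold change of 0.17 (95% interval -0.22 to 0.56) and both stimuli against IL-33 gave 0.31 (-0.07 to 0.70), neither called. The interaction, the antibody difference with IL-33 minus that without it, was 0.15 (-0.41 to 0.70). The call for IL-33 alone was lost without library 1 of the IL-33 group (adjusted p = 0.0516) or library 1 of the isotype group (adjusted p = 0.0617), while both other calls remained when any single library of their groups was left out.

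These counts stand against the following backgrounds over the 14547 genes tested. With both stimuli against isotype, 1 of 10 members was called, beside 9.88% of all genes; it rose, as 5.47% of all genes did, and no member fell, beside 4.41%. With IL-33 against isotype, 1 of 10 was called, beside 2.21% of all genes. It rose, as 1.46% did, and none fell, beside 0.749%. With the library number as a block among these groups alone, edgeR called 2 members, Il2rg and Jak3. All genes called there were 1235, against 322 in the main fit. With both stimuli against anti-Siglec-F, 1 of 10 was called, beside 4.42%; it rose, as 2.7% did, and none fell, beside 1.72%. Anti-Siglec-F against isotype, both stimuli against IL-33 and the interaction gave 0 calls in edgeR among the members, beside 0% of all genes. At an unadjusted p under 0.05 each of these 3 comparisons held 1 member of 10, beside 2.54%, 17.4% and 7.91% of all genes in the same order, and DESeq2 and limma's voom called 0 members in each. The median log2 fold change of the 10 genes was 0.01 with both stimuli against isotype, beside -0.05 for all genes, 0.18 with IL-33 against isotype, beside -0.01, and 0.13 with anti-Siglec-F against isotype, beside -0.01. All 3 comparisons share the isotype libraries. It was -0.15 with both stimuli against anti-Siglec-F, beside -0.04, and -0.21 with both stimuli against IL-33, beside -0.03. The interaction was negative for 9 of the 10 genes, with a median of -0.33, beside -0.03 for all genes. Without libraries 2 and 3 of the group with both stimuli, it turned positive for Jak1, Stat5a, Stat5b and Stat6; that fit leaves 1 library in the group, assumed to vary like the others.

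**Figure D2:**
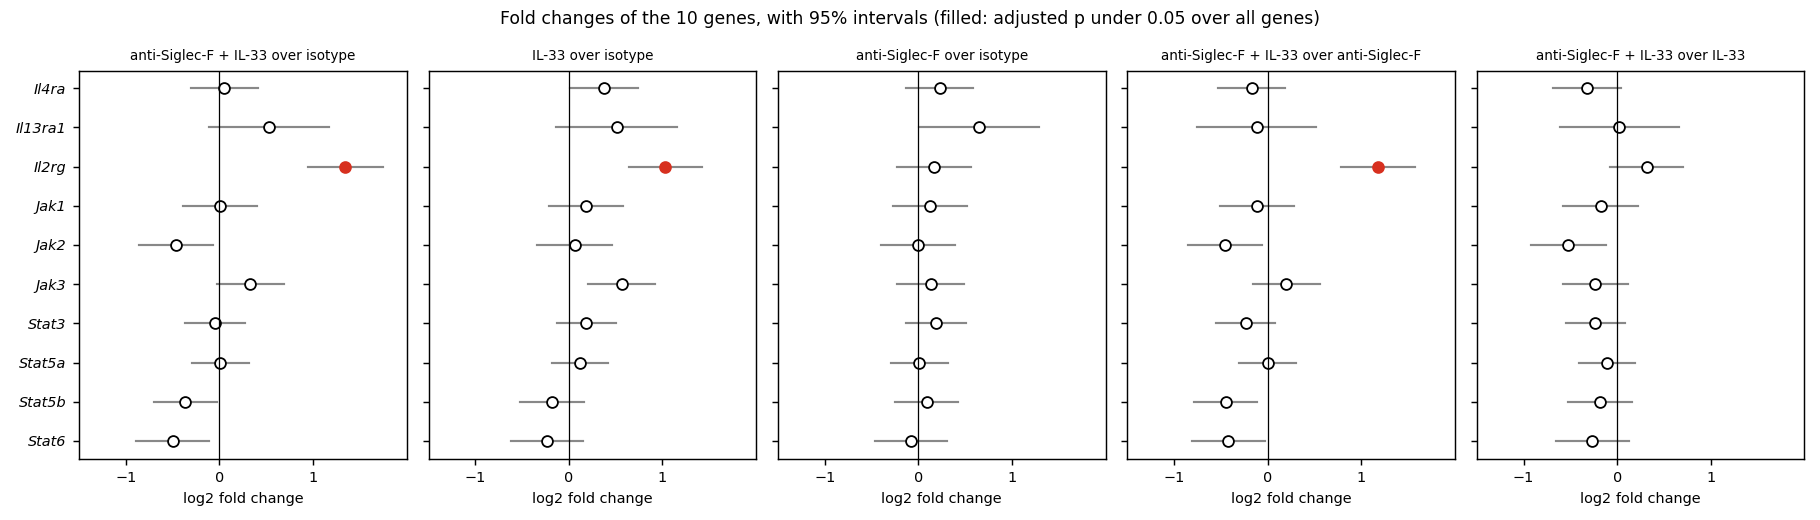
Log2 fold change of each gene in 5 comparisons, with 95% intervals as lines; filled points have an adjusted p under 0.05 over all genes tested. Il2rg is filled in the 3 comparisons where only the first-named group received IL-33, and no other gene is filled.

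Genes of other cells were looked at beside Il2rg, since lymphocytes and macrophages carry it too. The 15 T cell and ILC2 markers summed to between 39.8 and 53.8 CPM with both stimuli, 35.8 and 157 CPM with IL-33, 38.2 and 56.7 CPM with anti-Siglec-F and 45.5 and 80.6 CPM with isotype, and none was called. The 7 NK cell markers summed to at most 13.2 CPM in any library. The 11 B and plasma cell markers summed to between 598 and 907 CPM with both stimuli, 660 and 1285 CPM with IL-33, 719 and 911 CPM with anti-Siglec-F and 745 and 1149 CPM with isotype. Dendritic cell markers summed to between 813 and 866, 719 and 1214, 761 and 1100, and 708 and 903 CPM in the same groups. No gene of these 2 lists was called. The sum of the listed monocyte and macrophage markers was, like Il2rg, higher in the groups with IL-33. Unlike Il2rg, which overlapped there, the sum also lay above isotype with anti-Siglec-F alone. This sum lay between 3262 and 4149 CPM with both stimuli, 2515 and 3475 CPM with IL-33, 2040 and 2374 CPM with anti-Siglec-F and 1574 and 1850 CPM with isotype. Of the 11 tested of 14 listed, Csf1r, Adgre1 and Spic rose with both stimuli and with IL-33, both against isotype, beside 5.47% and 1.46% of all genes. Which cells these transcripts came from was not tested. Vcam1 averaged 88.7 CPM with both stimuli, 67.9 CPM with IL-33, 23.1 CPM with anti-Siglec-F and 22.6 CPM with isotype and was not called against isotype, with both stimuli (1.97, adjusted p = 0.0584) or with IL-33 (1.58, adjusted p = 0.24). Fcgr1 averaged 4.22, 2.91, 4.78 and 2.14 CPM and Ly6c2 averaged 127, 61.9, 86.3 and 97.6 CPM in the same groups, neither called. Marco, Mertk and Cd163, defining macrophage markers, averaged at most 0.326 CPM in any group and were not tested, and C1qa averaged at most 1.84 CPM. The part of these genes in the Il2rg result was not tested.

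Il4ra (ENSMUSG00000030748, chr7:125552120-125579474 in mm10, plus strand), which encodes the chain that binds interleukin-4, was not called in any comparison. It had 333, 272 and 247 CPM with both stimuli, 312, 433 and 322 CPM with IL-33, 294, 336 and 331 CPM with anti-Siglec-F, and 251, 296 and 274 CPM with isotype. With IL-33 alone all libraries lay above the isotype libraries, while with both stimuli the libraries lay on both sides of them. The log2 fold change was 0.38 with IL-33 against isotype (95% interval 0.01 to 0.74, adjusted p = 0.339) and 0.05 with both stimuli against isotype (-0.31 to 0.41). The interaction for Il4ra was -0.55 (95% interval -1.06 to -0.04, unadjusted p = 0.037, adjusted p = 0.583), the smallest unadjusted p for an interaction among the 10 genes.

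Il13ra1, the chain shared by both ligands, was rare, with 69 to 167 counts per library. It had 5.62, 12.5 and 9.20 CPM with both stimuli, 7.90, 7.40 and 11.6 CPM with IL-33, 8.37, 10.1 and 11.1 CPM with anti-Siglec-F, and 7.51, 5.10 and 6.27 CPM with isotype. Only the anti-Siglec-F libraries all lay above isotype, with a log2 fold change of 0.65 (95% interval 0.01 to 1.29) and an adjusted p of 1.00. Il13ra2, the decoy receptor for interleukin-13, had 0 counts in all 12 libraries, which allows a level of up to 0.257 CPM in the shallowest library and 0.175 CPM in the deepest, counting error only.

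The ranges of libraries give a second view of the same genes. Against isotype, 3 of 10 members did not overlap with both stimuli (Il2rg and Jak3 above, Stat6 below), beside 27.2% of all genes. With IL-33 these were 5 of 10 (Il4ra, Il2rg, Jak3 and Stat3 above, Stat6 below), beside 24.1%, and with anti-Siglec-F 2 of 10 (Il13ra1 and Stat3 above), beside 13.2%. Both stimuli against IL-33 separated Jak2 alone, beside 14.1%, and both stimuli against anti-Siglec-F separated Il2rg and Stat5b, beside 22%.

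Among the kinases Jak3 (ENSMUSG00000031805, chr8:71676296-71690575 in mm10, plus strand), which binds the common gamma chain, was the one that stood apart with IL-33. It had 18.7, 21.7 and 19.6 CPM with both stimuli, 23.8, 25.1 and 21.6 CPM with IL-33, 14.5, 20.0 and 17.7 CPM with anti-Siglec-F, and 16.3, 16.0 and 15.4 CPM with isotype. All 6 libraries with IL-33 lay above the isotype libraries, and those with both stimuli overlapped those with anti-Siglec-F. The log2 fold change with IL-33 against isotype was 0.56 (SE 0.16, 95% interval 0.21 to 0.92), with an adjusted p of 0.103 in edgeR, and it was not called. The labels state no pairing, but IL-33 and isotype libraries of equal number deviated together. With the number as a block, edgeR gave an adjusted p of 0.0358 in a fit of these libraries alone and 0.0994 over all 12 libraries. DESeq2 gave 0.0161 and limma's voom with quality weights 0.00636, both past the threshold. With both stimuli against isotype the log2 fold change of Jak3 was 0.33 (-0.02 to 0.68).

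Jak1, which binds IL-4Rα, had 438, 312 and 306 CPM with both stimuli, 419, 335 and 441 CPM with IL-33, 395, 388 and 362 CPM with anti-Siglec-F, and 400, 283 and 368 CPM with isotype. All groups overlapped, and its log2 fold change with both stimuli against isotype was 0.01 (95% interval -0.39 to 0.40). Jak2 (ENSMUSG00000024789, chr19:29251828-29313080 in mm10, plus strand), the kinase of the interleukin-5 receptor's beta chain, had 444, 303 and 270 CPM with both stimuli, 470, 474 and 517 CPM with IL-33, 474, 492 and 430 CPM with anti-Siglec-F, and 527, 404 and 470 CPM with isotype. Libraries 2 and 3 with both stimuli were lower than all others, and library 1 was within the isotype range. The log2 fold change of Jak2 with both stimuli was -0.46 against isotype (95% interval -0.86 to -0.06, adjusted p = 0.13) and -0.52 against IL-33 (-0.92 to -0.12, adjusted p = 0.21).

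Stat6 (ENSMUSG00000002147, chr10:127642986-127660957 in mm10, plus strand), the main factor of the interleukin-4 signal, had 339, 199 and 274 CPM with both stimuli, 349, 298 and 329 CPM with IL-33, 374, 330 and 385 CPM with anti-Siglec-F, and 401, 351 and 398 CPM with isotype. The libraries with both stimuli and those with IL-33 were all below the isotype libraries, while those with anti-Siglec-F overlapped them. The log2 fold change was -0.50 with both stimuli against isotype (95% interval -0.89 to -0.11, adjusted p = 0.0947) and -0.24 with IL-33 against isotype (-0.62 to 0.15), neither called. Stat6 overlaps Nab2, on the opposite strand, by 40 bases in the annotation, and the strand setting of the counting is not known here.

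Stat5b, a carrier of the interleukin-5 signal, had 216, 149 and 164 CPM with both stimuli, 210, 177 and 215 CPM with IL-33, 245, 231 and 247 CPM with anti-Siglec-F, and 243, 211 and 227 CPM with isotype. Libraries with both stimuli were all below those with anti-Siglec-F, with a log2 fold change of -0.45 (95% interval -0.79 to -0.11, adjusted p = 0.117). Its close copy Stat5a had 77.9, 56.3 and 69.7 CPM with both stimuli, 78.1, 68.5 and 73.2 CPM with IL-33, 71.7, 66.5 and 65.9 CPM with anti-Siglec-F, and 70.2, 67.4 and 65.1 CPM with isotype. All groups overlapped for Stat5a, and its log2 fold change with both stimuli against isotype was 0.01 (-0.29 to 0.31). Reads may be divided between these near-identical genes, so the separate levels are uncertain. Stat3, used by interleukins 6 and 10, had 293, 214 and 220 CPM with both stimuli, 286, 289 and 279 CPM with IL-33, 279, 267 and 311 CPM with anti-Siglec-F, and 247, 243 and 261 CPM with isotype. Each single stimulus put all Stat3 libraries above isotype, by log2 fold changes of 0.19 in both cases, and neither was called.

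Among the libraries with both stimuli, library 1 differed from libraries 2 and 3 in a way that followed gene length. It was above both for 7 of the 10 genes (70% of them, beside 35.0% of all genes) and below both for Il2rg, Jak3 and Il13ra1. Over the 9178 genes with at least 5 CPM, the median log2 difference of library 1 from the mean of libraries 2 and 3 was -0.59 for genes up to 2000 bases and 0.37 for genes over 6000 bases. Il2rg, at 2387 bases the shortest member, had a difference of -0.24, and Jak2, at 5030 bases, had the largest positive one, 0.63. Il13ra1, at 3712 bases, had a difference of -0.92 and Jak3, at 5352 bases, -0.14. Without library 1, edgeR called 4 members with both stimuli against isotype, Il2rg up and Jak2 (-0.72), Stat5b (-0.55) and Stat6 (-0.71) down, beside 19.1% of all 15278 genes tested in that fit. Against anti-Siglec-F it was 5, with Il2rg up and Jak2 (-0.71), Stat3 (-0.41), Stat5b (-0.64) and Stat6 (-0.63) down, beside 18.6% of all genes, and against IL-33 it was Jak2 alone (-0.78), beside 13.8%. Without libraries 2 and 3 instead, which leaves 1 library in the group, assumed to vary like the others, Il2rg alone was called against isotype. With the trend on length removed from each library, the log2 fold change of Il2rg was 1.30 with both stimuli against isotype (adjusted p = 0.000152), 1.13 with IL-33 against isotype (adjusted p = 0.000758) and 1.07 with both stimuli against anti-Siglec-F (adjusted p = 0.00142). In the same fit Jak2 was -0.39, Stat5b -0.27 and Stat6 -0.46 with both stimuli against isotype, and none of them was called. The comparison of both stimuli with isotype also followed gene length. Its median log2 fold change was 0.39 for genes up to 2000 bases and -0.16 for genes over 6000 bases. The part of gene length in the values of the members was not tested further.

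**Figure D3:**
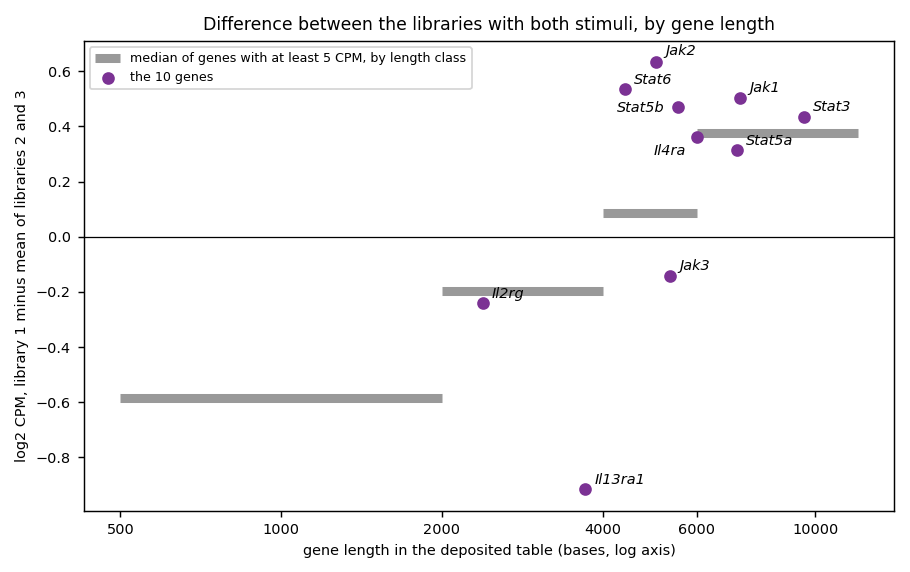
Log2 CPM of library 1 minus the mean of libraries 2 and 3, among the libraries with both stimuli, against gene length in bases (log axis); purple points are the 10 genes and grey bars are medians of genes with at least 5 CPM in 4 length classes. The medians run from -0.59 for the shortest class to 0.37 for the longest, and 7 of the 10 genes lie above 0.

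Ratios of counts per kilobase between members of a library do not depend on how libraries are scaled. They were formed after the counts had been seen, for 9 pairs and 45 comparisons. The genes of a pair differ in length, as Il2rg at 2387 and Il4ra at 6002 bases do. The trend on gene length described above can therefore enter these ratios, and its part was not tested. With 3 libraries against 3 an exact permutation test (two-sided) cannot give a p under 0.1, which is 0.25 after Benjamini-Hochberg adjustment over the 45. The ratio of Il2rg to Il4ra was 1.06, 1.62 and 1.61 with both stimuli, 1.10, 0.83 and 0.804 with IL-33, 0.563, 0.454 and 0.632 with anti-Siglec-F, and 0.513, 0.617 and 0.577 with isotype. Counts per kilobase of the common gamma chain thus equalled or exceeded those of IL-4Rα in all libraries with both stimuli and in 1 with IL-33, and in none without IL-33. Because Il2rg overlaps Gm20489 in the annotation, whether the true ratio passes 1 is uncertain. The ratio of Stat6 to Stat3 was 2.50, 2.02 and 2.70 with both stimuli, 2.64, 2.24 and 2.55 with IL-33, 2.90, 2.68 and 2.68 with anti-Siglec-F, and 3.52, 3.14 and 3.29 with isotype. All 9 stimulated libraries lay below all isotype libraries. The ratio of Jak2 to Jak1 was 1.46, 1.39 and 1.27 with both stimuli, 1.61, 2.03 and 1.69 with IL-33, 1.72, 1.82 and 1.71 with anti-Siglec-F, and 1.89, 2.05 and 1.83 with isotype, so that libraries with both stimuli were below all others. The ratio of Stat5b to Stat5a averaged 3.33 ± 0.28 with both stimuli and 3.52 ± 0.24 with IL-33, against 4.57 ± 0.24 with anti-Siglec-F and 4.32 ± 0.26 with isotype (SD, n = 3), and no library with IL-33 reached any library without it. Of the other pairs, Jak3 to Jak1 and Il13ra1 to Il4ra overlapped in every comparison. Il2rg to Il13ra1 separated only both stimuli from anti-Siglec-F, and Stat6 to Stat5b only anti-Siglec-F from isotype. Il2rg to Stat6 separated the same groups as Il2rg to Il4ra.

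**Figure D4:**
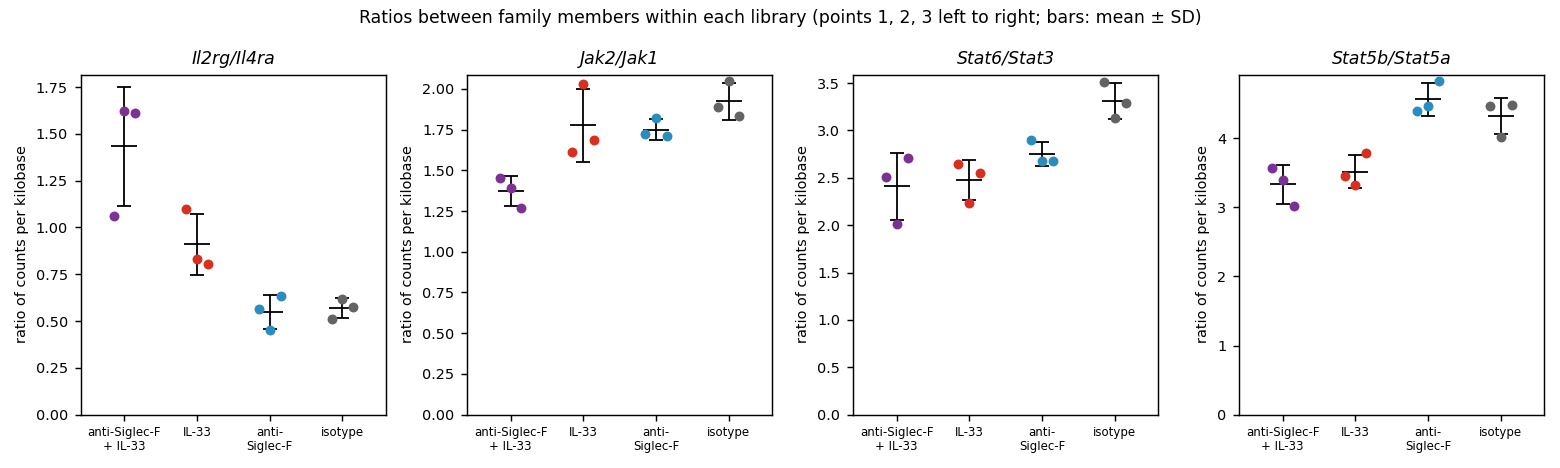
Ratio of counts per kilobase between 2 members within each library; points are libraries 1, 2 and 3 from left to right, and bars are the mean ± SD (n = 3), on linear axes from 0. Il2rg over Il4ra is highest with IL-33, with or without the antibody, and Stat6 over Stat3 is highest with isotype.

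The other genes of the pathway were counted from lists of symbols. These lists were chosen with earlier results of these data known, so their counts are a description. Of the other JAK and STAT genes, 0 of 4 were called in edgeR against isotype, with both stimuli (1 at an unadjusted p under 0.05, 1 in DESeq2) or with IL-33 (0 and 0). Over all genes edgeR called 9.88% and 2.21%, and 26.5% and 13.6% had an unadjusted p under 0.05. Tyk2, the kinase that can replace JAK2 on IL-13Rα1, averaged 92.8 CPM with both stimuli, 119 CPM with IL-33, 82.0 CPM with anti-Siglec-F and 81.9 CPM with isotype.

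Among 24 other chains of receptors that use JAKs, 4 rose and 0 fell with both stimuli against isotype, beside 5.47% and 4.41% of all genes. With IL-33 against isotype 1 rose (5 in DESeq2), beside 1.46% of all genes in edgeR. The median log2 fold change of the list was 0.18 with both stimuli and 0.45 with IL-33, beside -0.05 and -0.01 for all genes. Leaving out a single library gave 2 to 5 that rose with both stimuli and 0 to 2 with IL-33, where 3 rose with the length trend removed. The chains that rose with both stimuli belong to receptors of interferons and interleukin-10: Il10rb (1.18, adjusted p = 0.00489), Ifngr2 (0.89, adjusted p = 0.00612), Il10ra (0.68, adjusted p = 0.0133) and Ifnar1 (0.56, adjusted p = 0.0406). The gene that rose with IL-33 was Il10ra (0.66, adjusted p = 0.0371 in edgeR), a call kept in 1 of 6 fits that left out a library. The calls of Il10rb and Ifngr2 with both stimuli remained when any single library was left out. Those of Il10ra and Ifnar1 remained in 4 and 2 of 6 such fits. None of the chains that pair with the common gamma chain was called. Il21r averaged 29.1 CPM with both stimuli, 40.7 CPM with IL-33, 25.6 CPM with anti-Siglec-F and 23.8 CPM with isotype, and Il2ra averaged 7.01, 6.42, 6.47 and 4.20 CPM in the same groups. Crlf2, the partner of the interleukin-7 receptor for thymic stromal lymphopoietin, averaged 245, 154, 179 and 184 CPM.

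Of 20 inhibitors and phosphatases of the pathway, 4 rose and 1 fell with both stimuli against isotype, beside 5.47% and 4.41% of all genes. With IL-33 against isotype 0 were called in edgeR, beside 2.21% of all genes, and 5 in DESeq2. At an unadjusted p under 0.05 there were 9, beside 13.6% of all genes. The list's medians were 0.16 and 0.32, and leaving out a single library gave 1 to 6 that rose with both stimuli. Ptpn6, which encodes the phosphatase SHP-1, rose by a log2 fold change of 0.77 (adjusted p = 0.0125 in edgeR). Socs3, a feedback inhibitor of STAT3 signals, rose by 0.75 (adjusted p = 0.0182) and Ptpn2, a phosphatase of JAK1 and JAK3, by 0.74 (adjusted p = 0.00634). The call of Socs3 remained in 3 of 6 fits that left out a library, that of Ptpn6 in 5 and that of Ptpn2 in 6. Pias3, an inhibitor of STAT3, fell by 0.67 (adjusted p = 0.00908). Socs1, a feedback inhibitor of JAK1 and JAK2, had 374, 739 and 705 CPM with both stimuli and averaged 378 ± 56.2 CPM with IL-33, 295 ± 18.4 CPM with anti-Siglec-F and 353 ± 87.6 CPM with isotype (SD, n = 3). It rose with both stimuli against anti-Siglec-F (1.04, adjusted p = 0.0314), a call kept in 1 of 6 fits that left out a library, and was not called against isotype (0.78, adjusted p = 0.0583). Cish, a STAT5-induced inhibitor, averaged 582 CPM with both stimuli and 392 CPM with isotype (adjusted p = 0.0521). Of 13 adaptors, Irs2, a docking protein of the interleukin-4 receptor, fell with both stimuli against isotype by 0.87 (adjusted p = 0.0432), in 1 of 6 fits that left out a library, and 0 rose. Over all genes 4.41% fell and 5.47% rose there.

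**Figure D5:**
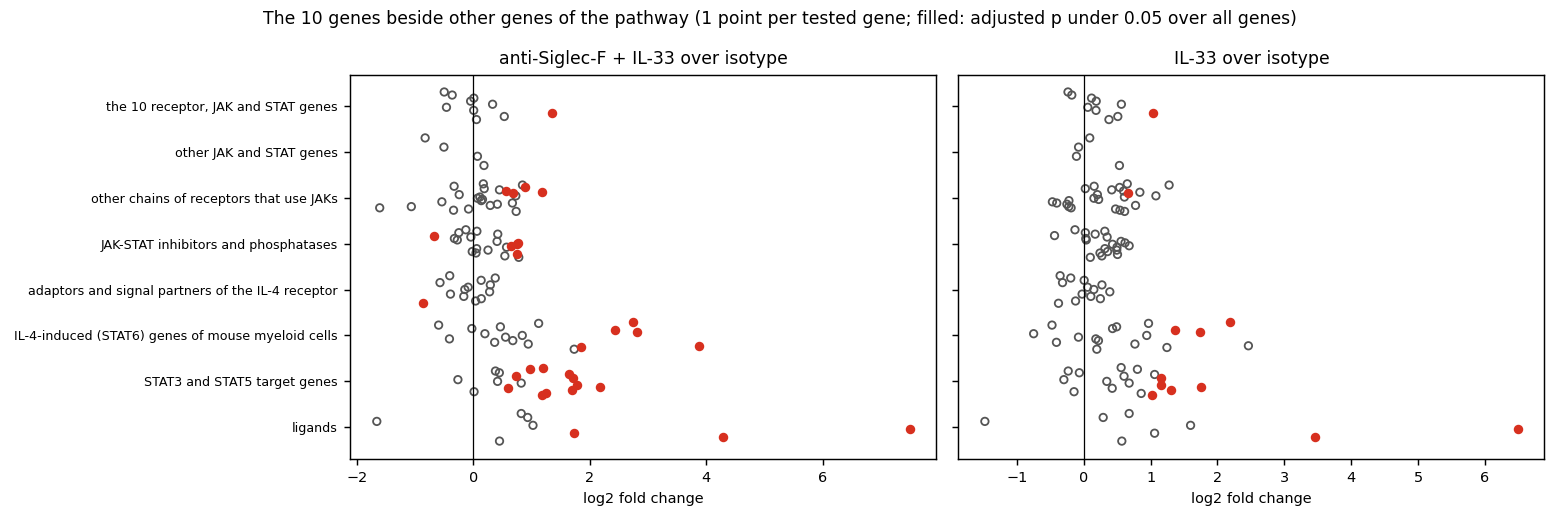
Log2 fold changes of the 10 genes and of the 7 other lists of the pathway, with 1 point per tested gene; the left panel shows both stimuli over isotype and the right panel IL-33 over isotype. Filled points have an adjusted p under 0.05 over all genes tested: 1 of the 10 genes, 11 of 17 STAT3 and STAT5 target genes and 5 of 17 IL-4-induced genes with both stimuli. Over all genes 9.88% were called with both stimuli.

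Genes that STAT factors are known to induce were counted beside the factors themselves. Because this list too was chosen with earlier results of these data known, its count is not an independent test. Of 17 STAT3 and STAT5 target genes, 11 rose and 0 fell with both stimuli against isotype, and 5 rose with IL-33 against isotype, beside 5.47% and 1.46% of all genes that rose. DESeq2 gave 11 and 9. The list medians were 0.97 and 0.68, beside -0.05 and -0.01 for all genes. Leaving out a single library gave 6 to 12 and 2 to 8 genes that rose. Bcl2l1, which encodes the survival protein Bcl-xL, had 316, 364 and 350 CPM with both stimuli, 278, 294 and 217 CPM with IL-33, 145, 138 and 157 CPM with anti-Siglec-F, and 96.0, 123 and 99.8 CPM with isotype. The groups with IL-33 did not overlap those without it, and the log2 fold change was 1.69 with both stimuli (adjusted p = 6.18e-05) and 1.31 with IL-33 (adjusted p = 0.000577), each against isotype. Pim2, a survival kinase, rose by 2.18 with both stimuli and 1.75 with IL-33, Pim3 by 1.78 and 1.15, and Il1rn, the interleukin-1 receptor antagonist, by 1.72 and 1.15. With IL-33, the call of Pim3 remained in 1 of 6 fits that left out a library and that of Il1rn in 2. Those of Bcl2l1 and Pim2 remained in all 6. Several of these genes are also known targets of other factors, NF-κB among them. Cish and Socs3 were counted with the inhibitors instead. Socs3 rose with both stimuli against isotype and Cish was not called.

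Of 17 genes that interleukin-4 induces in mouse macrophages, 5 rose and 0 fell with both stimuli against isotype, beside 5.47% and 4.41% of all genes. With IL-33 against isotype 3 rose, beside 1.46% of all genes. The genes that rose were Ccl24, an eosinophil-attracting chemokine (3.87), Pdcd1lg2, which encodes PD-L2 (2.80), Egr2 (2.74), Batf3 (2.43) and Ccl22 (1.85) with both stimuli, and Egr2 (2.19), Pdcd1lg2 (1.74) and Batf3 (1.36) with IL-33. The list's medians were 0.84 and 0.49. The calls with IL-33 each remained in 1 of 6 fits that left out a library, and those with both stimuli in 6 of 6 for Pdcd1lg2, Egr2 and Batf3, 5 for Ccl22 and 2 for Ccl24. The monocyte and macrophage markers given above summed to more in the same groups, and their part in these calls was not tested. Alox15, the 12/15-lipoxygenase that eosinophils carry from the start, averaged 1104 CPM with both stimuli and 1670 CPM with isotype and was not called. Arg1, the arginase of alternatively activated macrophages, averaged at most 1.27 CPM in any group.

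Most ligands of these receptors had too few reads to test. Of 8 tested of 19 listed, 3 rose with both stimuli and 2 with IL-33 against isotype, and 0 fell. Over all genes 5.47% and 1.46% rose. Il13 had 439, 204 and 568 CPM with both stimuli, 376, 218 and 87.7 CPM with IL-33, 36.2, 26.4 and 41.5 CPM with anti-Siglec-F, and 20.5, 20.9 and 20.8 CPM with isotype, and every group lay above isotype. It rose by a log2 fold change of 4.28 with both stimuli (adjusted p = 0.000173) and 3.45 with IL-33 (adjusted p = 0.0011), each against isotype. Il6, a STAT3 ligand, rose by 7.49 and 6.49, and Il5 rose by 1.72 with both stimuli. The Il5 reads can include those of the transgene. Il4, from whose locus the sort reporter is read, averaged 190 CPM with both stimuli, 206 CPM with IL-33, 193 CPM with anti-Siglec-F and 139 CPM with isotype and was not called. The 9 basophil and mast cell markers, cells that can make these cytokines too, summed to between 513 and 1205 CPM with both stimuli, 319 and 751 CPM with IL-33, 568 and 827 CPM with anti-Siglec-F and 290 and 428 CPM with isotype. Of these only Hdc, the histidine decarboxylase, rose with both stimuli against isotype (1.93), a call kept in 3 of 6 fits that left out a library. Cd200r3 fell with IL-33 against isotype (adjusted p = 0.035 in edgeR), a call kept in 0 of 6 such fits. The list's median log2 fold changes against isotype were 0.02 with both stimuli, -0.06 with IL-33 and -0.37 with anti-Siglec-F, unlike the summed level. Mcpt8, a basophil protease, averaged at most 2.81 CPM in any group. The part of such cells in the ligand values was not tested. Over the 102 tested genes of all 7 lists, edgeR called 29 with both stimuli against isotype, beside 9.88% of all genes. With IL-33 against isotype it called 11, beside 2.21%. DESeq2 called 37 and 26 of the 102 (2404 and 806 of all genes), and voom 27 and 42 (1425 and 2089 of all genes). With IL-33, 40 had an unadjusted p under 0.05, beside 13.6% of all genes. In anti-Siglec-F against isotype, both stimuli against IL-33 and the interaction, edgeR called 0, beside 0% of all genes. At an unadjusted p under 0.05 these 3 held 9, 22 and 7 of the 102, beside 2.54%, 17.4% and 7.91% of all genes. DESeq2 called 0, 4 and 0 there, beside 12, 470 and 3 of all genes.

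The genes whose course over the 12 libraries was most like that of Il2rg were looked for among 8577 genes with at least 5 CPM, by the root mean square difference of log2 CPM after each gene was centred on its mean. They were Ehd1, an endocytic recycling protein (0.12), Bcl3, an NF-κB cofactor (0.13), and Bcl2l1 (0.16), while the SD of Il2rg itself was 0.63. Ehd1 averaged 1450 CPM with both stimuli, 1224 CPM with IL-33, 738 CPM with anti-Siglec-F and 653 CPM with isotype. For Il4ra the nearest were Ppp1r10 (0.12), Zfp146 (0.12) and Eml4 (0.14), against an SD of 0.22 for Il4ra. Both sets were chosen by this likeness, and their levels are given as a description.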

How the data were processed

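The authors deposited raw counts, whole-number reads per gene for 54532 genes, and normalized counts that were not used. Per the submitters' processing notes, the tools named were featureCounts 1.5.0-p3, STAR 2.6.1d, DESeq2, fastp and FastQC 0.11.8, and the genome build was mm10. The strand setting of the counting and the annotation release were not given in the sources used here. From the deposited counts, edgeR 4.0.16 (R 4.3.3) fitted quasi-likelihood models to the 14547 genes that passed filterByExpr, with TMM factors, all 12 libraries and no replicate block. P-values were adjusted by Benjamini-Hochberg over all genes tested in each comparison, and an adjusted p under 0.05 was called. CPM used the TMM factors, and values per kilobase the gene lengths in the deposited table. Intervals are 95% and cover the spread between libraries. The tests were tried on simulated data first.

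Members, lists and tests were chosen with earlier results of these data known. Named genes are the 10 members, up to 3 called genes of each list with the largest change per comparison, and Tyk2, Socs1, Socs3, Cish, Il4, Il13 and Siglecf (a further gene of this rule is not reported here); list genes without a call are given with values, and Ifnar1, Il10ra and the remaining called genes named were chosen after their values were seen. Alternatives were DESeq2 1.42.0, its size factors, no filter, only the groups compared, a replicate block and leaving out libraries, and, chosen after seeing the data, library totals, limma 3.58.1 voom with quality weights, a block within the groups compared and removal of the length trend. Equal library numbers deviated together for IL-33 and isotype (correlations 0.31, 0.43 and 0.25 over 9178 genes, all over 0.1), and in no other comparison. The main fit nevertheless used no block, and the block is given as an alternative. The labels state no pairing, and libraries of unequal number were not compared in this way.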

Additional observations from a re-analysis of the deposited data

How the results depend on the processing

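Il2rg kept its direction and its calls with both stimuli against isotype and against anti-Siglec-F under all alternatives tried. Its call with IL-33 against isotype was lost only without library 1 of either group. Members called with IL-33 against isotype numbered 1, but 2 (Jak3 added) with DESeq2, with limma's voom and with the replicate block among the groups compared; the replicate block over all 12 libraries changed no call of a member (Jak3 adjusted p = 0.0994). With both stimuli against isotype 1 was called, but 4 with library totals and 3 with voom (Jak2 and Stat6 down, and Stat5b with library totals); against anti-Siglec-F 1, but 2 with library totals (Stat5b down). The median of all genes with both stimuli against isotype was -0.05, but -0.25 with library totals and 0.26 with no filter; all genes called there split 796 up and 641 down, but 472 and 1420 with library totals.

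Leaving out a single library gave 1 to 4 members with both stimuli against isotype, 0 to 1 with IL-33 against isotype, 1 to 5 with both stimuli against anti-Siglec-F, 0 to 1 with both stimuli against IL-33 and 0 to 0 for anti-Siglec-F against isotype and the interaction; the upper ends of 4, 5 and 1 in the 3 comparisons of both stimuli came without library 1 of the group with both stimuli. Over all genes these ranges were 515 to 2916, 116 to 488, 124 to 2839, 0 to 2116, 0 to 0 and 0 to 4, against 1437, 322, 643, 0, 0 and 0. DESeq2 called 2404, 806, 1627, 470, 12 and 3; no filter called 683 for IL-33 against isotype, 1600 for both against anti-Siglec-F, 786 for both against IL-33, 70 for anti-Siglec-F and 86 for the interaction; voom called 2089 for IL-33 against isotype, 424 for both against anti-Siglec-F and 10 for anti-Siglec-F; fits of only the groups compared called 738, 242 and 20 for both against isotype, both against anti-Siglec-F and anti-Siglec-F against isotype, and with the replicate block 916, 350 and 50, and 1235 for IL-33 against isotype. Without libraries 2 and 3 of the group with both stimuli, where its lone library is assumed to vary like the other groups, 688, 651, 220 and 1 genes were called for IL-33, both against isotype, both against anti-Siglec-F and anti-Siglec-F.

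No called value changed sign; all sign changes were in uncalled log2 fold changes, and the cause was not tested. For anti-Siglec-F against isotype, Jak2 was 0.0053 with DESeq2, 0.0054 with its size factors, 0.0069 with no filter, 0.0027 with the replicate block, 0.00060 with the block among the groups compared and 0.0045 with the length trend removed, and Stat5a was -0.0040 with the length trend removed and -0.028 with library totals. For both stimuli against isotype, Stat5a was -0.0081 with no filter, -0.00051 with the replicate block, -0.20 with library totals and -0.038 with voom; Jak1 was -0.0059, -0.19 and -0.10 with no filter, library totals and voom; Il4ra was -0.15 with library totals and Stat3 0.13 with the length trend removed. For both stimuli against IL-33, Il13ra1 was -0.0064 with no filter, -0.014 with the block among the groups compared and with the length trend removed, and -0.14 with library totals, and Stat5a was 0.045 with the length trend removed. For both stimuli against anti-Siglec-F, Stat5a was 0.025 with DESeq2, 0.024 with its size factors, 0.029 with only the groups compared, 0.020 with the block among them and 0.15 with the length trend removed, and Jak1 was 0.032 with the length trend removed. In the interaction, Il2rg was -0.058 and Stat5a 0.049 with the length trend removed. Without libraries 2 and 3 of the group with both stimuli, 16 changed sign: against isotype Il13ra1 (-0.11) and Stat3 (0.28); against IL-33 Il13ra1 (-0.63), Jak1 (0.17), Stat3 (0.080), Stat5a (0.12), Stat5b (0.15) and Stat6 (0.095); against anti-Siglec-F Il4ra (0.11), Jak1 (0.25), Stat3 (0.087) and Stat5a (0.25); in the interaction Jak1 (0.051), Stat5a (0.11), Stat5b (0.058) and Stat6 (0.17). Leaving out a single library gave ranges across 0 for both stimuli against isotype of -0.092 to 0.14 for Il4ra, -0.20 to 0.13 for Jak1, -0.22 to 0.030 for Stat3 and -0.12 to 0.12 for Stat5a; against IL-33 of -0.28 to 0.26 for Il13ra1 and -0.23 to 0.0063 for Stat5a; against anti-Siglec-F of -0.42 to 0.12 for Il13ra1 and -0.12 to 0.11 for Stat5a; for IL-33 against isotype of -0.014 to 0.18 for Jak2; for anti-Siglec-F against isotype of -0.0075 to 0.24 for Jak1, -0.097 to 0.10 for Jak2 and -0.021 to 0.049 for Stat5a; and in the interaction of -0.012 to 0.27 for Il2rg. Low counts limit Il13ra1 most, at 69 to 167 per library.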
